A study of Mus musculus with 8 samples.

Results

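The replication-dependent histone genes were examined for DNA double-stranded breaks (DSBs) in mouse embryonic stem (ES) cells that lack the chromatin remodeler Chd1. They were taken as the protein-coding genes of the GENCODE M1 annotation (mm9) whose symbols start with Hist1h, Hist2h, Hist3h or Hist4h, and there were 67 of them among 22359 protein-coding genes. Chd1 KO cells carried Chd1delta/delta and control cells Chd1fl/delta, so control cells also had 1 deleted Chd1 allele. The KO cells were an established line, and both lines were cultured ES cells without further treatment in these lists. In DSB-seq, DNA ends are labeled with biotin by terminal transferase in fixed nuclei, pulled down and sequenced. Each genotype had 2 replicates that the authors combined before they called peaks, so each genotype had 1 list, with 5671 peaks in Chd1 KO and 54 in control. There was no replicate error, and the lists hold no expression values with which to check the cell type.

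Replication-dependent histone genes supply the core histones H2A, H2B, H3 and H4 and the linker histone H1 that package newly made DNA in S phase. They are short, lie in clusters and mostly lack introns. Their mRNAs are the only known animal mRNAs that end in a conserved stem-loop instead of a poly(A) tail, and this stem-loop is bound by Slbp. H2A and H2B genes often stand head to head and share the DNA between them as a promoter.

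The annotation was first checked against this stem-loop. It was searched within 150 bp after the last coding base and found in 56 of the 67 histone genes. Over all protein-coding genes it was found in 58, or 0.259%, and both others, H2afx and 1700014N06Rik, were outside the group. All 6 H1 genes, 17 of 19 H2A, 13 of 18 H2B, 10 of 11 H3 and 10 of 13 H4 genes had it. The 3 commonest forms are shown on the coding strand as DNA, with the stem in capitals and the loop in lower case.
Form of 36 genes of the H1, H2A, H2B and H3 families: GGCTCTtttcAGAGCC
Form of 9 genes of the same families: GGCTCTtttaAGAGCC
Form of 8 genes, all H4: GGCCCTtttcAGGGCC
The H4 form differed from the other forms by its stem. The stem-loop began a median of 35 bp after the last coding base, and at most 62 bp after it.

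The DNA between head-to-head genes is shown next, because peaks were counted around these start sites. All 12 head-to-head pairs with less than 500 bp between their transcription start sites (TSSs) joined an H2A and an H2B gene, and they held 24 of the 67 genes. The stretch between the TSSs was 167 to 305 bp long, and its GC content had a median of 42.5% and a range of 38.3% to 47.9%. Among the pairs annotated with leaders of at least 20 bp, the lowest and the highest GC are shown on the plus strand. Capitals mark the CCAAT box (CCAAT), the TATA box (TATAAA), the GC box (GGGCGG) and the octamer (ATTTGCAT) on either strand.
Hist1h2ae and Hist1h2bg, chr13:23663090-23663264: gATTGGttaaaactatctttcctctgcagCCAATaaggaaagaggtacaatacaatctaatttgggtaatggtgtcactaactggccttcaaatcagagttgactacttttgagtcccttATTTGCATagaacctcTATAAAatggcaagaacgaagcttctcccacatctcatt
Hist1h2ap and Hist1h2br, chr13:21925445-21925611: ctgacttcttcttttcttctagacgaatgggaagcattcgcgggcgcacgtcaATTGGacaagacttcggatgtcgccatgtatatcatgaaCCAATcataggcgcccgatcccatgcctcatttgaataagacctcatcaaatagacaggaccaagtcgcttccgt
The first held an octamer and a TATA box beside its CCAAT boxes, and the second only CCAAT boxes. CCAAT boxes were present in all 12 pairs, the octamer in 5 and the TATA box in 5. No unbroken run of G and C between paired TSSs exceeded 9 bp.

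Promoters of the other families are shown for the genes of lowest and highest GC, as the 150 bp before the TSS on the coding strand, with the same motifs in capitals.
Hist1h1b (H1), chr13:21872495-21872644, minus strand: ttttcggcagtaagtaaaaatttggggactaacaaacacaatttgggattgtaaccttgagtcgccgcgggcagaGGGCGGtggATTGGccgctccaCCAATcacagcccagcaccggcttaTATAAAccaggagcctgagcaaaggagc
Hist1h1c (H1), chr13:23830526-23830675, plus strand: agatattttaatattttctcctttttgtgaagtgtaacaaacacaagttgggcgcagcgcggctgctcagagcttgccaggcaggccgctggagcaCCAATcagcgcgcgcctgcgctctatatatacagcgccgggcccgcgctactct
Hist1h3d (H3), chr13:23667482-23667631, plus strand: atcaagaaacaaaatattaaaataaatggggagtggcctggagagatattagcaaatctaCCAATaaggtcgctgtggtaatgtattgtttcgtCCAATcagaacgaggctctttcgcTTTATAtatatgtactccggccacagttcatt
Hist2h3c1 (H3), chr3:96049327-96049476, plus strand: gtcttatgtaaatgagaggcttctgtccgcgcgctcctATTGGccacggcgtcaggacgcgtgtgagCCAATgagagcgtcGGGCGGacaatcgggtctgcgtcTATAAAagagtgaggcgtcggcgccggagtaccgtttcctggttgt
Hist1h4b (H4), chr13:23848656-23848805, plus strand: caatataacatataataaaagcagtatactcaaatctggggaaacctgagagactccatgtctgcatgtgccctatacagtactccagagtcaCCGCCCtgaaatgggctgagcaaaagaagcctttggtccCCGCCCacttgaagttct
Hist1h4a (H4), chr13:23853100-23853249, minus strand: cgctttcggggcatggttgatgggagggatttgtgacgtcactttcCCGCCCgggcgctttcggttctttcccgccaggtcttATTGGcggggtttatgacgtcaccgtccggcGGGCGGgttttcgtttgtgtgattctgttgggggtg
The H1 and H3 stretches held CCAAT boxes, and both H4 stretches held GC boxes, as did those of Hist1h1b and Hist2h3c1. The stretch of Hist2h3c1 overlaps the start of Hist2h2aa1. The outermost TSS of Hist2h3c1 lies 1197 bp from its coding start, so this stretch is mostly the DNA upstream of Hist2h2aa1. In 9 of the 67 genes the annotated TSS is the first base of the coding sequence, so the true start lies upstream of it.

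No DSB peak was found at a histone gene. In Chd1 KO cells the summit of a peak lay within 1 kb of a TSS for 0 of 67 genes. This count of 0 allows up to 4.48%, and the Wilson 95% interval ends at 5.42%. Over all protein-coding genes 3515 of 22359 had one, or 15.7% (95% interval 15.2% to 16.2%). In control cells the count was also 0 of 67, beside 0 of 22359 genes, or 0%, so the control list carried no information about these promoters. By family the Chd1 KO count was 0 of 6 H1, 0 of 19 H2A, 0 of 18 H2B, 0 of 11 H3 and 0 of 13 H4 genes. These families are too small to be read on their own, since a count of 0 allows up to 50.0% in H1 and 15.8% in H2A. Paired and duplicated genes share DNA, so the 67 genes are not 67 independent sites.

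The space between the genes was also without peaks. Histone genes no more than 100 kb apart formed 8 groups, which covered 0.512 Mb with 5 kb added on each side. Their sizes were 29, 18, 5 and 2 genes on the main part of chromosome 13, 9 on chromosome 3 and 2 on chromosome 11. Hist1h2al lay alone elsewhere on chromosome 13, and Hist4h4 alone on chromosome 6 beside H2afj. These stretches held 0 summits in Chd1 KO and 0 in control. The genome had 2.22 Chd1 KO summits per Mb, and a count of 0 over this length allows up to 5.86 per Mb, so a density equal to that of the genome was not detectable as a difference.

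**Figure D1:**
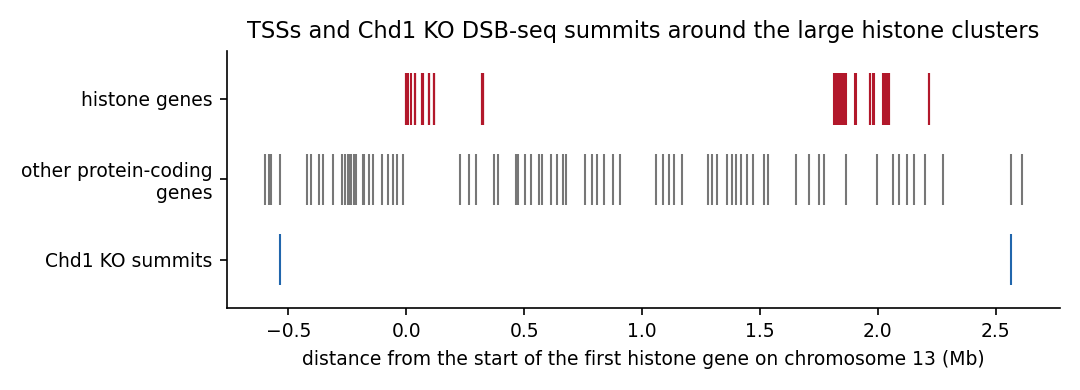
Map of the histone genes on chromosome 13 and their surroundings, with the distance from the first histone gene in Mb on the x axis. Vertical lines mark TSSs of histone genes (red), TSSs of other protein-coding genes (grey) and Chd1 KO summits (blue). The only summits drawn lie at −0.54 and 2.57 Mb, outside all histone genes of the region.

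The nearest Chd1 KO summits were far from the genes. The closest summit to any histone TSS lay 87.1 kb from Hist3h2a, an H2A gene at chr11:58768187-58770176. Its neighbor Hist3h2ba was next, at 92.9 kb from the same summit, and Hist1h2al followed at 102 kb. The peak near Hist1h2al was 117 bp from the TSS of Spin1, with a fold enrichment of 5.73 and 29 reads. On chromosome 3 the nearest peak to the 9 histone genes was 57 bp from the TSS of Otud7b, with a fold enrichment of 4.69 and 19 reads, 115 kb from Hist2h2ab. The 54 histone genes of the main chromosome 13 region lay between a summit 27 bp from the TSS of Trim27 and one 435 bp from a TSS of Lrrc16a. These summits were 3.10 Mb apart, and no other Chd1 KO summit was between them. Over all histone genes the distance to the nearest Chd1 KO summit had a median of 585 kb, and over all protein-coding genes 90.3 kb. The nearest control summit was at least 15.3 Mb away where the chromosome had one at all, and chromosome 13 had 0.

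Genes with Chd1 KO summits were GC-rich, and histone genes were not. Within 1 kb of the TSS the histone genes had a median GC content of 49.4% (quartiles 47.1% and 51.3%). All protein-coding genes had 51.2% (45.7% and 56.0%), and genes with a Chd1 KO summit 58.7% (55.1% and 62.1%). All histone genes lay between 42.6% and 55.7%, so when all genes were divided into 5 equal groups by GC, 0 of them fell in the richest group, which began at 57.2%. The gap to all genes depended on the window. Within 500 bp on both sides the median was 54.0% in histone genes and 54.8% in all genes. From 250 bp upstream to 50 bp downstream the median was 46.2% in histone genes, 55.5% in all genes and 68.4% in genes with a summit.

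The profile around the TSS showed where the GC-rich DNA lay. In 50-bp bins the median GC of histone genes was 46% at −25 bp, beside 58% in all genes and 74% in genes with a Chd1 KO summit. Downstream, from the bin at 75 bp to the bin at 375 bp, the histone medians were 62% to 68% and lay above those of all genes, which were 56% to 60%. They stayed below those of genes with a summit, which were 70.0% to 74%. The histone maximum of 68% at 175 bp lay in a stretch that is mostly coding sequence in these short genes. CpG dinucleotides were not rare in histone genes despite the modest GC. The observed over expected CpG ratio had a median of 0.751 in histone genes, 0.469 in all genes and 0.737 in genes with a summit.

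**Figure D2:**
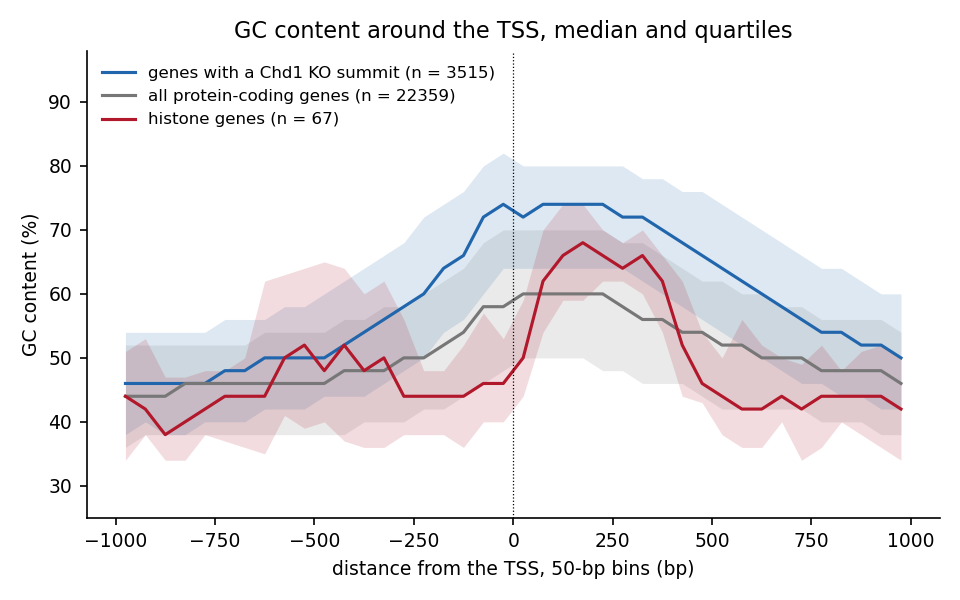
GC content in percent (y axis) in 50-bp bins around the TSS (x axis, bp, coding direction to the right), as median lines with shaded quartiles for histone genes, all protein-coding genes and genes with a Chd1 KO summit. At −25 bp the medians are 46% in histone genes, 58% in all genes and 74% in genes with a summit, and histone genes rise above all genes from 75 to 375 bp, with 68% at 175 bp.

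Families differed in GC within this range. H2A genes had the highest median at 51.1%, from 42.6% in Hist1h2ab to 55.4% in Hist2h2aa1. H2B genes had 50.1%, from 44.2% in Hist1h2bh to 53.9% in the duplicated genes Hist1h2bq and Hist1h2br. H1 genes had 48.2%, from 46.7% in Hist1h1b to 52.4% in Hist1h1c. H3 genes had 47.3%, from 43.4% in Hist1h3d to 55.7% in Hist2h3c1, the highest of all 67. H4 genes had the lowest median at 46.1%, from 43.3% in Hist1h4b to 53.2% in Hist1h4a. The genes of highest GC in the H2A and H3 families, Hist2h2aa1 and Hist2h3c1, overlap each other on chromosome 3, and their outermost TSSs are 16 bp apart. The coding start of Hist2h3c1 lies 1197 bp from its outermost TSS, so its GC value describes the surroundings of the Hist2h2aa1 start.

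When genes were compared at like GC, the background was lower than over all genes. In these 5 groups of promoter GC, the share of other genes with a Chd1 KO summit rose from 0.966% in the lowest group to 3.45%, 7.35%, 18.5% and 48.3%. The 67 histone genes fell 3, 29, 25, 10 and 0 into these groups. Averaged over the groups in the proportions of the histone genes, the share of other genes was 7.04%. The limit of 4.48% for the histone genes lay below it, but pairs of histone genes share one promoter region.

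**Figure D3:**
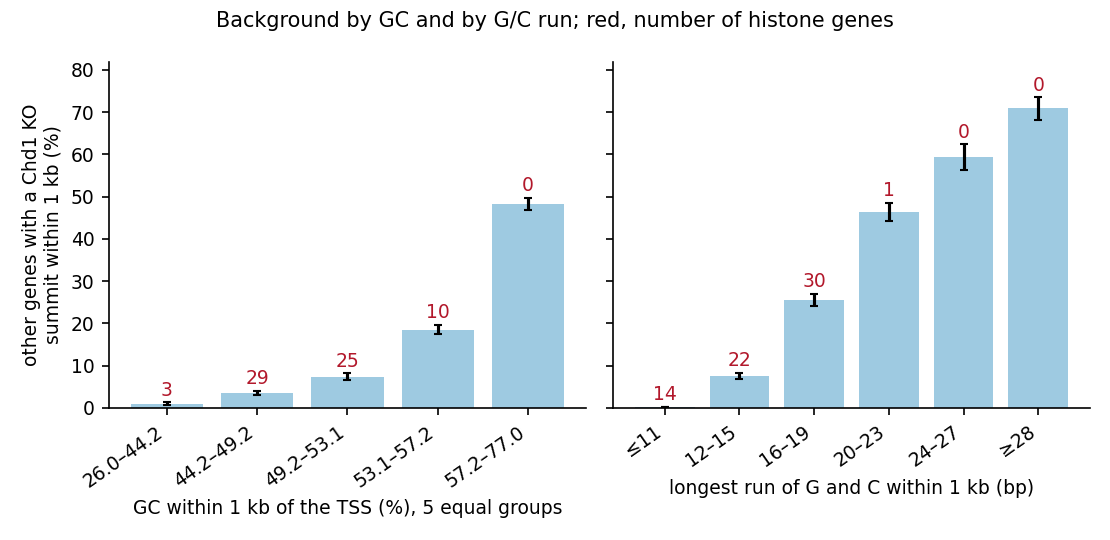
Share of other protein-coding genes with a Chd1 KO summit within 1 kb of a TSS (y axis, percent), in 5 equal groups by promoter GC (left) and in classes of the longest run of G and C in bp (right). Bars start at 0, error bars are Wilson 95% intervals and red numbers count the histone genes in each class, none of which had a summit. No histone gene is in the group of highest GC, where the share is 48.3%.

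Histone genes were among the shortest genes. Their length had a median of 530 bp (quartiles 448 and 872 bp), beside 13204 bp over all protein-coding genes and 33142 bp in genes with a Chd1 KO summit. In all, 51 of 67 were under 1 kb, and 61 had a single exon. The longest were all H2B genes whose annotation adds a second, distant exon. Hist1h2be measured 37368 bp, Hist2h2bb 9281 bp and Hist1h2bc 8290 bp, and none of these had a summit. In Hist1h2be the outermost TSS lies 35168 bp from the coding start, so its GC, run, motifs and unique share describe that distant site. The DNA before its coding start was not measured as a promoter, but its group of genes held no Chd1 KO summit. By family, the median length was 828 bp in H1, 519 bp in H2A, 571 bp in H2B, 620 bp in H3 and 427 bp in H4.

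Short genes in general seldom had a Chd1 KO summit. Among other genes under 1 kb, 50 of 1863 had one, or 2.68% (2.04% to 3.52%), beside 26.4% of those over 20 kb. Of all 2855 single-exon genes 127 had one, or 4.45%. Averaged over the classes of length and GC that histone genes occupied, the share of other genes was 3.80%, which is under the limit of 4.48%. At this GC and length, a share equal to that of other genes was therefore not detectable as a difference with 67 genes.

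**Figure D4:**
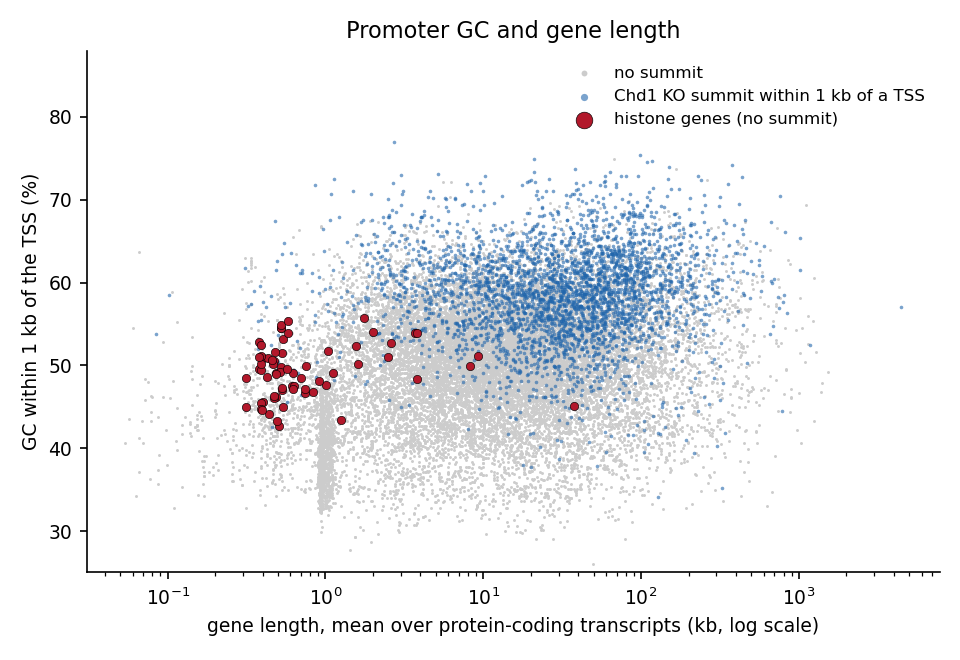
GC content within 1 kb of the TSS (y axis, percent) against gene length (x axis, kb, log scale), with 1 point per protein-coding gene. Genes with a Chd1 KO summit are blue, genes without one grey and histone genes red. The red points sit to the left of most blue points, with 51 of 67 under 1 kb, and none is above 55.7% GC.

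Runs of G and C were examined because the share of genes with a Chd1 KO summit rose steeply with their length. A run is an unbroken stretch of G and C only, and the longest within 1 kb of any TSS was taken for each gene. Among other genes the share with a summit was 0.194% for runs up to 11 bp, 7.54% for 12 to 15 bp, 25.5% for 16 to 19 bp and 46.4% for 20 to 23 bp. Histone genes were not short of such runs. At least 12 bp was reached by 53 of 67, or 79.1%, beside 56.2% of all genes, and at least 16 bp by 31, or 46.3%, beside 33.4%. Runs of 20 bp or more were found in 1 of 67, beside 17.9% of all genes and 63.7% of genes with a summit. Averaged over the classes of GC and run that the histone genes occupied, the share of other genes was 9.04%, above the limit of 4.48%.

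The longest runs came from a few sequences. Those of 16 bp or more are shown on the strand of the coding sequence that holds them, or as the alphabetically first strand where none does.
Hist2h3c1, 22 bp, also present near Hist2h2aa2: CGCGCGCCCCCGCCCGCCGCCC
H2A coding sequence, 13 positions and 23 genes: GGGCGCCGGCGCCCCGG
H2A coding sequence, 3 positions and 4 genes: GGGCGCCGGCGCGCCGG
Hist1h1t: GCGCCCCCCCCCCCCGC
Hist2h2aa1 and Hist2h2aa2: CGCCCCGGCGCCGCCC
Of the 28 genes with a 17-bp run, 26 had it from the coding sequence of an H2A gene of the group, their own or that of the H2B gene's partner. In Hist1h2bm it started at −372 bp from the TSS, outside the coding sequence of these genes, so this position of the 13 is not in H2A coding sequence. In Hist1h1t, a testis H1 gene, it started at −36 bp from the TSS. Among the 19 H2A genes, 15 held the 17-bp run in their own coding sequence, and in 14 of them it began 131 bp from the start codon. H4 genes stopped at 15 bp, also mostly inside their coding sequence.

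The sequence around the H2A run was nearly the same from gene to gene. With 20 bp added on each side, the 15 H2A genes held 7 different stretches of 57 bp, and 1 of them was shared by 7 genes. Representatives are shown on the coding strand with the run in capitals.
Shared by 7 genes, here Hist1h2ai, chr13:21808402-21808458: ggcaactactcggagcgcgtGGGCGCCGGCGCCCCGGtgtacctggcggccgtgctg
Shared by 3 genes, here Hist1h2ag, chr13:22134629-22134685: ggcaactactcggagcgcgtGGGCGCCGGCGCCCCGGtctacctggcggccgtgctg
Hist1h2ak alone, chr13:21845529-21845585: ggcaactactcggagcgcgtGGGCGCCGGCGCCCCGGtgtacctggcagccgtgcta
Hist2h2ab alone, chr3:96023950-96024006: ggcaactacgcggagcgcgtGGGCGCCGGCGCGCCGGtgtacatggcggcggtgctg
At all 13 positions of the commoner 17-bp run and all 3 of the other, no Chd1 KO peak covered it.

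Reads of the duplicated histone sequences could be placed less often than those of other genes. Sequencing used 50-base reads, and reads of low mapping quality were removed, so the share of 50-mers that occur once in mm9 was computed. Within 1 kb of the TSS it had a median of 80.7% in histone genes and 100% in all protein-coding genes. By family the median was 96.7% in H1, 70.0% in H2A, 70.5% in H2B, 78.3% in H3 and 90.0% in H4. Hist1h2bq, Hist1h2ao, Hist1h2ap and Hist1h2br, which form a duplicated block, had 0%. Hist1h4m and Hist1h4n in the same block had 7.02% and 8.04%. In the 4 genes at 0%, no exact 50-base read within 1 kb of the TSS could be placed at 1 position.

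The loss was greatest at the runs themselves. The 30 genes with a longest run of 16 to 19 bp shared 19 positions, and at 11 of these positions none of the 50-mers over the run was unique. The median over the 19 positions was 0%. Only at Hist1h1t, of these 30, was every 50-mer over the run unique. Among the 22 genes with a run of 12 to 15 bp, 10 had it fully in unique sequence. These 11 genes, which had no Chd1 KO summit, are Hist1h1t and Hist1h1c, Hist1h1e, Hist1h2ba, Hist1h2bb, Hist1h3a, Hist1h3c, Hist1h3i, Hist1h4f, Hist2h4 and Hist3h2ba. With at least 80% unique 50-mers within 1 kb, 34 histone genes remained, 0 of which had a summit, and this allows up to 8.82%. Hist1h2be is among them only through the sequence at its distant TSS. Averaged over their classes of GC and run, the share of other genes that met the same minimum was 4.86%, and over classes of GC and length 2.83%. For the histone genes where reads could be placed, a share equal to that of other genes of like sequence was thus not detectable as a difference.

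**Figure D5:**
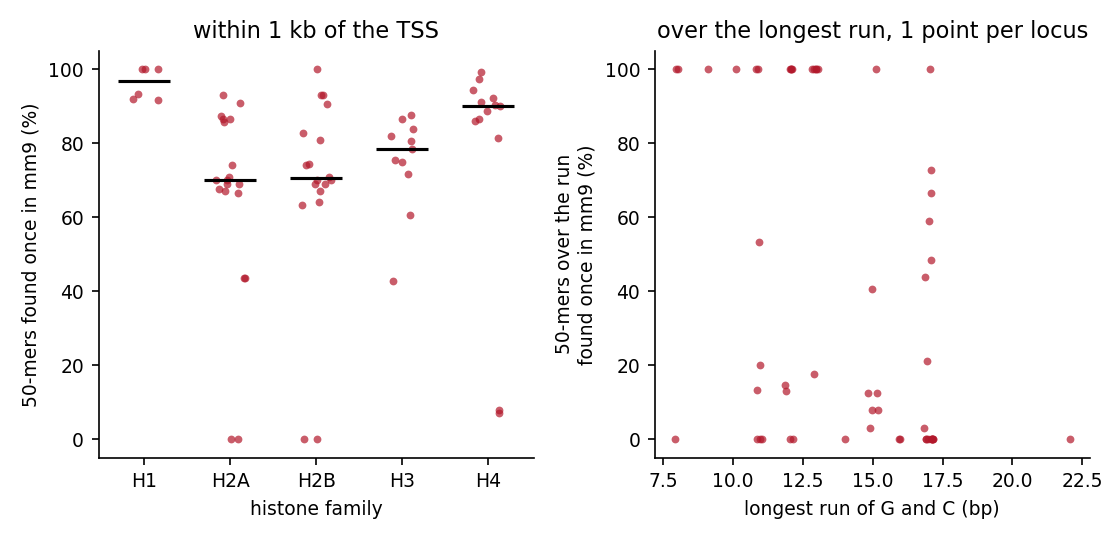
Percent of 50-mers found once in mm9 within 1 kb of the TSS for each histone gene by family (left, black lines are medians) and over the longest run of G and C at each position against run length in bp (right, points spread sideways for visibility). H1 and H4 genes are mostly unique, with medians of 96.7% and 90.0%, whereas at runs of 16 to 19 bp 11 of 19 positions are at 0%.

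Promoter motifs occurred at other rates in histone genes than in genes with a Chd1 KO summit. They were searched on both strands from 250 bp upstream to 50 bp downstream, and no match of one motif overlapped a match of another in these genes. Windows of head-to-head genes overlap, so 1 match can count for both genes of a pair or lie inside the partner gene. Between paired TSSs, TATAAA and the octamer were each present in 5 of 12 pairs. CCAAT was found in 57 of 67 histone genes (85.1%), beside 37.9% of all promoters and 31.1% of those with a summit. All H1, H2A and H2B genes and 10 of 11 H3 genes had it, but only 4 of 13 H4 genes. TATAAA was found in 38 of 67 (56.7%), beside 13.4% of all promoters and 4.44% of those with a summit. The octamer ATTTGCAT, which Oct factors bind, was found in 15 of 67 (22.4%), beside 1.73% of all promoters, and all 15 were H2A or H2B genes. GGGCGG, the GC box bound by Sp1, was found in 28 of 67 (41.8%), beside 44.0% of all promoters and 76.0% of those with a summit. In H4 genes it was found in 10 of 13, and in H3 genes in 1 of 11. That H3 gene was Hist2h3c1, whose outermost TSS lies inside Hist2h2aa1. Of all single-exon protein-coding genes, to which 61 of the 67 belong, 30.4% had TATAAA and 38.7% CCAAT. The octamer was found in 3.08% of these single-exon genes and GGGCGG in 13.5%. GGGCGG is itself made of G and C, so it is not independent of the runs.

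Histone genes that are expressed outside S phase, most of which have introns and poly(A) tails, were also counted. Of 12 annotated replication-independent histone genes 4 had a Chd1 KO summit within 1 kb of a TSS, or 33.3% (13.8% to 60.9%). Over all protein-coding genes the share was 15.7%, which lies inside this interval. A control summit was found at 0 of the 12. The 4 with a Chd1 KO summit were H3f3a, which encodes H3.3, H2afv, which encodes an H2A.Z form, H2afy2, which encodes a macroH2A, and H1fx, a linker histone. The summit of H3f3a lay 45 bp upstream of its TSS with 25 reads and a fold enrichment of 4.74, and its peak held a run of 23 bp at chr1:182743728-182743750, on the plus strand: CGCCGCCCCGCCCCGCGCCGCGC. Its promoter GC was 63.5%. H1fx is a single-exon gene of 1.06 kb, near the size of replication-dependent genes, but had a GC of 67.6% and a longest run of 32 bp, and its summit held 22 reads. H3f3b, which encodes the same protein as H3f3a, had a GC of 42.4%, a longest run of 13 bp and its nearest summit at 49.5 kb. H2afx, which has the stem-loop and encodes the histone marked at DSBs, had a GC of 57.9%, a longest run of 15 bp and its nearest summit at 101 kb. The 12 genes had a median GC of 56.7% and a median run of 18.5 bp, so they also stood apart from the 67 in the features that went with summits. The difference between both groups of histone genes was not tested.

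The factors that act on histone genes, mRNAs and proteins were looked at as a list. Of 35 annotated genes 13 had a Chd1 KO summit, or 37.1% (23.2% to 53.7%), beside 15.7% of all genes, and 0 had a control summit. These were Asf1a and Hira, which are histone chaperones, Supt16h, a subunit of FACT, Ubn1, a partner of Hira, and Lsm11, Sympk and Srrt of mRNA processing. Eri1 and Upf1, which take part in histone mRNA decay, Ccne1 and Ccne2, which are the E-type cyclins of S phase entry, E2f1 and Pou2f1, the Oct1 factor, completed them. Lsm11 belongs to the U7 snRNP that cleaves histone pre-mRNA, and its summit lay 187 bp from a TSS, that of Eri1 118 bp. Among the genes without a summit within 1 kb, Slbp, Npat, Casp8ap2 and Hinfp, chosen for their known roles at histone genes or mRNAs, had their nearest summits 69.8, 153, 47.4 and 71.6 kb away. The median GC of this list was 55.0% and its median length 17.1 kb. Genes matching symbols of cytosolic ribosomal proteins had a summit in 8 of 144 (5.56%, 2.84% to 10.6%), beside the same 15.7% of all genes. Of these 8, Rps6ka1, Rps6ka5 and Rps6kb1 encode S6 kinases and Rps2-ps5 is named as a pseudogene, so at most 4 are ribosomal protein genes: Rpl7, Rpl14, Rpl24 and Rpl36al.

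The depth sets the reach of these counts. The lowest background at a summit was 3.18 extended reads in Chd1 KO and 2.95 in control, which corresponds to about 29800000 and 27600000 combined reads. No Chd1 KO peak had fewer than 13 reads at its summit, and the median was 21. A site at the lowest background needed a fold enrichment of about 3.35 to reach 13 reads, so weaker breaks at histone genes lie outside these lists.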

How the data were processed

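DSB-seq of mouse ES cells was analyzed from 1 peak list per genotype, each from 2 replicates. Bowtie2 alignment to mm9 by the authors was followed by removal of reads with mapping quality under 13 and of duplicates at the same position. Replicates were then merged and reads extended to 200 bp. MACS2 peaks had a q-value of at most 0.05, no input library is named for them, and blacklisted regions were left out. The deposited fold enrichment is a ratio of the reads to the local background within 1 library, and the −log10 p-value, −log10 q-value, the score made from it and the summit offset are also as the authors gave them. ChIP-seq was not analyzed here.

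Genes and TSSs came from GENCODE M1, whose chromosome names and lengths match mm9. GC content was taken at the outermost protein-coding TSS, summits and runs at each protein-coding TSS, and gene length as the mean over protein-coding transcripts. A 50-mer counted as unique when it occurred once in mm9 on both strands, without mismatches. Clusters joined histone genes up to 100 kb apart and were extended by 5 kb. Reads at a summit were recovered from the fold enrichment and the Poisson p-value, which was tested on simulated data. Depth was estimated from the lowest background, as the file gives no totals. With 1 list per genotype no test between genotypes was possible. Shares have Wilson 95% intervals, and a count of 0 the limit of 3 counts, which cover counting error only. The genes and lists were chosen with earlier results of these data known. Named genes were those with the summits nearest to a TSS, the highest and lowest GC of each family, the 3 longest runs (with ties), the 3 longest genes and the lowest shares of unique 50-mers. Python 3.11.15, NumPy 2.4.6, SciPy 1.17.1, pandas 2.3.3, statsmodels 0.14.6, pysam 0.24.0 and Matplotlib 3.10.9 were used.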

Additional observations from a re-analysis of the deposited data

How the results depend on the processing

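Each of the 10 alternatives for the Chd1 KO count and the 9 for the control count gave 0 histone genes, and each of the 6 for summits between the genes gave 0 in both lists. These covered other windows, TSSs, q-value cutoffs, the midpoint or any overlap of the peak, wider or narrower clusters and, for Chd1 KO, genes with at least 80% unique 50-mers. The share of all protein-coding genes with a Chd1 KO summit, 15.7%, was 14.4% with 500 bp on both sides, 16.4% with 2 kb, 9.45% from 1 kb upstream to 100 bp downstream, 14.5% at the outermost TSS, 15.1% at a q-value cutoff of 0.001, 11.3% for autosomal genes with 1 TSS and 17.3% for genes with at least 80% unique 50-mers. The median GC of histone genes, 49.4%, was 54.0% with 500 bp on both sides (54.8% in all genes) and 46.2% from 250 bp upstream to 50 bp downstream. Their count with a run of at least 12 bp, 53, was 31 for runs of at least 16 bp and 1 for at least 20 bp. Median length stayed at 530 bp in both alternatives. No paired analysis was possible because the replicates numbered in the labels were combined into 1 list per genotype before peaks were called. Weak sites, duplicated sequence and peaks removed as blacklisted, a list not used here, limit what a count of 0 can show.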

Other observations

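The stretch of chromosome 13 that holds 54 of the histone genes had 70 other protein-coding genes between its flanking Chd1 KO summits. By symbol, 33 were vomeronasal and 9 olfactory receptor genes, which encode chemosensory receptors. The 70 had a median promoter GC of 41.8% and a median longest run of 8 bp, and 4 of them had a run of at least 16 bp. Of 5650 distances between neighboring Chd1 KO summits, 110, or 1.95%, were at least as long as this one of 3.10 Mb, and the median distance was 161 kb.

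H2afz, which encodes the major H2A.Z form, had a promoter GC of 62.5% and a run of 28 bp, yet its nearest Chd1 KO summit lay 3.34 kb away. The run of 16 bp from Hist2h2aa1 and Hist2h2aa2 had 2 other copies in mm9, near the TSSs of Fmnl2 and Cited2, and neither lay under a Chd1 KO peak. These genes were chosen after their values were seen.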
